A study of Mus musculus with 2 samples.

Results

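Heat shock chaperones were followed as a list of 10 genes, Hspa1a, Hspa1b, Hsph1, Dnajb1, Dnaja1, Hspb1, Hsp90aa1, Hsp90ab1, Hspa8 and Hspe1, out of the 27998 genes of the files. The list named the genes without a cut on measured values, but it was chosen with earlier results of these data known. All 10 symbols were found, and their counts of unique molecular identifiers (UMIs, each standing for 1 captured RNA molecule) were summed per cell class and muscle. The data were 2 droplet single-cell libraries of mononuclear cells, 1 from the quadriceps, a limb muscle, and 1 from the diaphragm, the muscle of breathing. The cells came from C57BL/6J mice, 10 in all, for which no treatment, genotype or age was labelled. Each muscle was digested with collagenase and dispase at body temperature, the cells of several mice were combined per tissue, and viable cells were sorted on light scatter alone. A difference between the muscles therefore cannot be told apart from one between single pools, digestions or libraries, and no test over animals was possible.

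Chaperones bind unfolded proteins and help them to fold, to stay soluble or to be cleared. Some are made all the time, while others are made in bulk when heat, oxidants or other damage to proteins frees heat shock factor 1 (HSF1), which then binds repeated GAA and TTC units before its target genes. Hspa1a and Hspa1b encode nearly identical inducible HSP70 proteins, and Hspa8 encodes their constitutive relative. Dnajb1 and Dnaja1 encode HSP40 co-chaperones that hand clients to HSP70, Hsph1 encodes an HSP110 that exchanges its nucleotide, and Hspb1 encodes the small heat shock protein HSP27. Hsp90aa1 and Hsp90ab1 encode the inducible and the constitutive cytosolic HSP90, and Hspe1 encodes the mitochondrial HSP10, the lid of the HSP60 chamber. In skeletal muscle these proteins are known for their rise after exercise and after tissue is taken apart into single cells.

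The DNA before the members is shown because the HSF1 units are what members of the list are known to share. RefSeq start windows on GRCm38.p6 were matched for 7 members, which had 11 windows. In the 250 bases before the start, 6 of the 7 held GAANNTTC or TTCNNGAA, and only Hspe1 held 3 units in a row. Both motifs read the same on either strand, and they overlap where 3 units adjoin. Over 32851 windows of the same table, 6.69% held GAANNTTC, 7.17% held TTCNNGAA and 0.466% held 3 units in the same 250 bases. These shares are per window and per motif, while a member counted if any of its windows matched, so they are not directly comparable. A match describes letters only and is not a binding site. The 250 bases before Hspa1a, chr17:34972157-34972406 on the minus strand, are given whole, and for the other members 28 bases around the match, each read 5′ to 3′ on the strand of its gene with the matches in capitals. The Dnajb1 windows held no match.
Hspa1a, whole: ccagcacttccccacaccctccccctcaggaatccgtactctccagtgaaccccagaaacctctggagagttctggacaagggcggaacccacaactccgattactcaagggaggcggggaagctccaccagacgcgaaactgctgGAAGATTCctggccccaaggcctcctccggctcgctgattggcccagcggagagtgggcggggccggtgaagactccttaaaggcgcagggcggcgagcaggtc
Hspa1b, chr17:34959325-34959352, minus: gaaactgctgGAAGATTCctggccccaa
Hspe1, chr1:55088054-55088081, plus: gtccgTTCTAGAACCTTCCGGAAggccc
Hspb1, chr5:135887802-135887829, plus: GAAGTTTCcagatgggggcaGAACCTTC
Hsph1, chr5:149636352-149636379, minus: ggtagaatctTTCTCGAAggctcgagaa
Dnaja1, chr4:40722334-40722361, plus: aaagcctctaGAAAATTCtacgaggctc

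Hspa1a (chr17:34969190-34972156) and Hspa1b (chr17:34956436-34959238) are single-exon genes that lie 9951 bases apart on the minus strand. Over their upstream 250 bases, 247 were identical and 3 differed. Their transcripts were 93.6% identical over 2735 aligned bases, but their last 500 bases, where a 3′ library reads, shared none of their 60-base words (0%). Hspe1 (chr1:55088132-55091307) overlaps the start of Hspd1, its HSP60 partner on the other strand, and 6 annotated pseudogenes carry its name, so its counts are less certain than those of the other members. Dnaja1 (chr4:40722150-40737149) overlaps Smu1, and Hspa1a overlaps Gm20481, each on the other strand, and whether the counting used strand is not given in the sources used here. The remaining members are Hsph1 (chr5:149614287-149636376), Dnajb1 (chr8:83608193-83612653), Hspb1 (chr5:135887919-135889563), Hsp90aa1 (chr12:110690605-110702728), Hsp90ab1 (chr17:45567775-45573271) and Hspa8 (chr9:40800984-40810087). Gene positions are those of GENCODE M21 on GRCm38, the build of the files.

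In quadriceps 5159 barcodes carried 50854519 UMIs, in diaphragm 2499 barcodes carried 28545242, and 5 barcode sequences occurred in both libraries. Members took 348866 UMIs in quadriceps (0.686%) and 502522 UMIs in diaphragm (1.76%). Levels are given as CPM, the UMIs of a gene over all UMIs of the class, scaled to a common total, and levels of different genes are not compared. After limits on depth, and with at most 5% mitochondrial UMIs, 2171 quadriceps and 1662 diaphragm cells were kept. Cells like fibro-adipogenic progenitors (FAP-like), which make the matrix of muscle and can turn to fat or scar, were 1846 (85.0%) and 1245 (74.9%) of them, and the 14 FAP markers summed to 85457 and 78003 CPM in these cells, with none at 0. A diaphragm cluster of 361 kept cells, led by Sfrp2 and Thbs4, had all 14 FAP markers but was left unnamed by the naming rule. With both libraries clustered together, 1885 quadriceps and 1600 diaphragm cells were FAP-like, so the shares do not show fewer such cells in diaphragm. The classes were built without the members and other stress genes, separately in each library. Intervals are exact 95% intervals that cover counting error only.

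In FAP-like cells every member was higher in diaphragm than in quadriceps. The inducible HSP70 and HSP90 genes, the HSP40 Dnajb1, HSP110 and the small heat shock protein Hspb1 differed most, the constitutive HSP90 and HSP10 least. Together the 10 genes made up 0.532% of all FAP-like UMIs in quadriceps and 1.87% in diaphragm. Past 2-fold higher in diaphragm were 8 of 10 members, against 3.5% of the 3283 genes that reached 50 CPM in either muscle, and 0 were past 2-fold higher in quadriceps, against 2.74%. The median log2 ratio of diaphragm to quadriceps was 2.14 over the members and −0.11 over all genes compared. These are counts without a test, since each tissue is 1 library.

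Hspa1a, the first inducible HSP70 gene, stood at 1034 CPM in quadriceps and 4274 in diaphragm FAP-like cells, a ratio of 4.13 (interval 4.07 to 4.20). Hspa1b, its copy, stood at 861 and 4243, a ratio of 4.93 (4.85 to 5.01). The constitutive Hspa8 was higher in diaphragm too, at 1016 and 2711, but with a ratio of 2.67 (2.63 to 2.71). The ratio of the constitutive HSP70 thus lay below those of both inducible genes, beyond counting error.

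Among the co-chaperones, Dnajb1 had the largest ratio of the list, 7.48 (interval 7.10 to 7.89), from 77.6 CPM in quadriceps to 580 in diaphragm. Dnaja1, the other HSP40, stood at 264 and 798, a ratio of 3.02 (2.92 to 3.11). Hsph1, which resets HSP70, stood at 61.4 and 295, a ratio of 4.81 (4.52 to 5.11). All 3 were past 2-fold, and the interval of Dnajb1 lay above that of every other member.

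Hspb1, which keeps unfolded proteins soluble without using ATP, stood at 344 CPM in quadriceps and 2094 in diaphragm, a ratio of 6.09 (interval 5.94 to 6.25). The inducible Hsp90aa1 stood at 299 and 1417, a ratio of 4.74 (4.61 to 4.87). Its constitutive partner Hsp90ab1 stood at 1164 and 2010, a ratio of 1.73 (1.70 to 1.76). Hspe1, the mitochondrial co-chaperonin, stood at 197 and 317, a ratio of 1.61 (1.55 to 1.68). Hsp90ab1 and Hspe1 were the members that did not pass 2-fold.

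**Figure D1:**
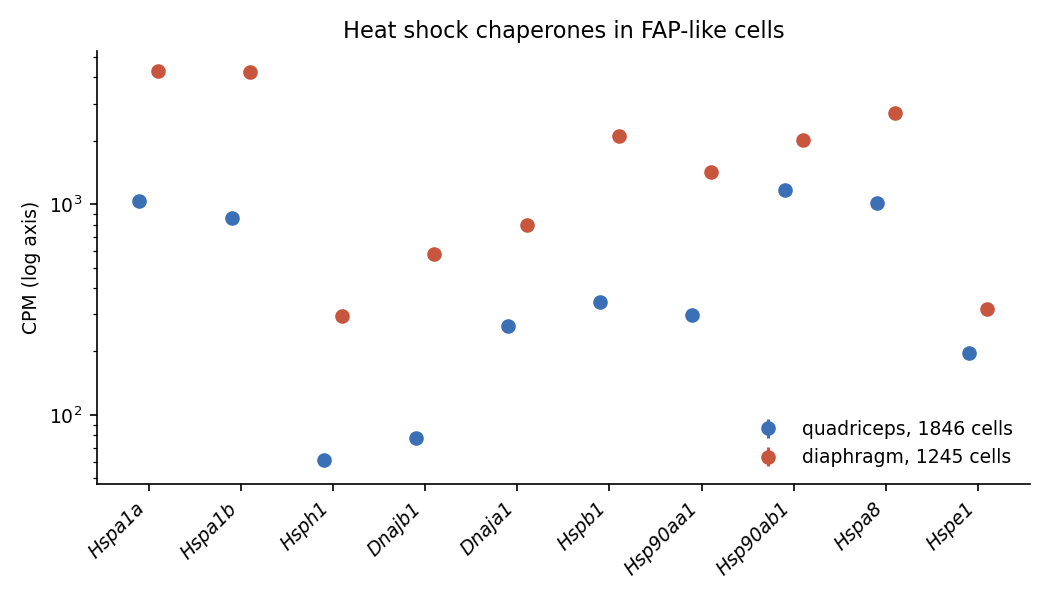
Level of each of the 10 heat shock chaperone genes in FAP-like cells, as CPM on a log axis, in the quadriceps (blue, 1846 cells) and the diaphragm library (red, 1245 cells), with 1 library per tissue and 95% counting intervals smaller than the points. Every diaphragm point lies above its quadriceps point, from a ratio of 1.61 for Hspe1 to 7.48 for Dnajb1.

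The clusters of FAP-like cells did not overlap between the muscles in the summed inducible genes Hspa1a, Hspa1b, Hsph1 and Dnajb1, called inducible below. The 5 quadriceps clusters ranged from 557 to 3048 CPM, and the 4 diaphragm clusters from 5165 to 11873. Hspa1a alone ranged from 293 to 1616 in quadriceps clusters and from 2252 to 5628 in diaphragm clusters. Hspb1 ranged from 150 to 467 and from 1526 to 2463, also without overlap. The other members did not overlap either, with Hspe1 at 187 to 210 and at 261 to 381. How many of all genes likewise did not overlap was not counted. In quadriceps the lowest cluster was led by Pi16 and Sbsn, and in diaphragm by Has1 and Tnfaip6, genes of hyaluronan synthesis and binding.

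The difference was also seen cell by cell once depth was made equal. With each cell thinned to 1000 UMIs, 47.5% of quadriceps FAP-like cells (interval 45.2% to 49.8%) and 93.3% of diaphragm ones (91.7% to 94.6%) had a UMI of an inducible member, while without thinning the shares were 88.3% and 99.6%. Dcn, the matrix proteoglycan that marks FAPs, was found in 100% of both. Median depths before thinning were 11154 UMIs in quadriceps and 12900 UMIs in diaphragm FAP-like cells.

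Gene by gene, Hspa1a was found in 32.0% of the FAP-like cells of quadriceps and 80.0% of those of diaphragm at this depth, and Hspa1b in 31.0% and 84.4%. Hspb1 was found in 19.7% and 56.1%, Hsp90aa1 in 24.2% and 56.1%, and Dnajb1 in 5.31% and 30.6%. Hsph1 was found in 5.20% and 21.7%, and Dnaja1 in 22.3% and 45.2%. The constitutive HSP70 and HSP90 genes were found in most cells of both muscles, Hspa8 in 57.5% and 84.5% and Hsp90ab1 in 65.4% and 80.5%. Hspe1 was found in 19.2% and 26.5%.

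The spread between cells was wide in both muscles. Of 1000 UMIs, a quadriceps FAP-like cell had a median of 0 and a 90th percentile of 6 inducible UMIs, with a highest value of 31. A diaphragm cell had a median of 8, a 10th percentile of 1, a 90th percentile of 20 and a highest value of 38. At least 5 inducible UMIs were found in 14.2% of quadriceps and 70.2% of diaphragm cells. The variance was 7.76 times the mean in quadriceps and 5.85 times in diaphragm, while counting alone gives a ratio near 1, so cells of the same class and muscle carried unequal amounts.

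**Figure D2:**
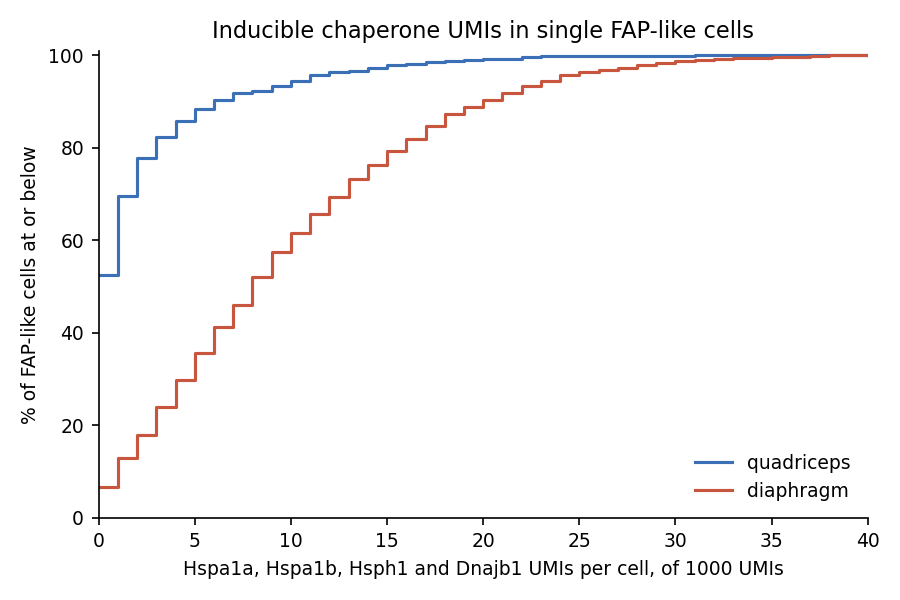
Share of FAP-like cells, in percent, with at most the number of Hspa1a, Hspa1b, Hsph1 and Dnajb1 UMIs on the horizontal axis, after each cell was thinned to 1000 UMIs, for quadriceps (blue) and diaphragm (red). The quadriceps line starts at 52.5% of cells with none, the diaphragm line at 6.75%.

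FAP-like cells were also divided into the FBN1+ and LUM+ subtypes, from Fbn1 and 3 other naming genes against Lum and 4 others, by clustering that left out the members. In both subtypes 8 of 10 members were past 2-fold higher in diaphragm, against 5.34% of 3335 genes in FBN1+ and 3.16% of 3256 genes in LUM+ cells. In FBN1+ cells (737 of quadriceps, 520 of diaphragm) Hspa1a stood at 525 and 3219 CPM, Dnajb1 at 43.3 and 468, and Hspb1 at 230 and 2116. These are ratios of 6.13, 10.8 and 9.19. In LUM+ cells (1109 and 725) Hspa1a stood at 1421 and 5178, Dnajb1 at 104 and 677, and Hspb1 at 430 and 2075. The ratios were smaller there, at 3.64, 6.53 and 4.83, with intervals that did not meet those of FBN1+ cells. Hspa1b, at 7.31 and 4.32, and Hsph1, at 5.65 and 4.50, also had the larger ratio in FBN1+ cells. The other 5 members had the larger ratio in LUM+ cells. Hsp90aa1 had a ratio of 3.37 (interval 3.23 to 3.51) in FBN1+ and 6.11 (5.88 to 6.35) in LUM+ cells, and Dnaja1 of 2.44 and 3.55. Hspa8 had ratios of 2.41 and 2.90 and Hspe1 of 1.39 and 1.81, while the log2 ratios of Hsp90ab1 were 0.58 and 0.96. With all variable genes used in clustering, members, stress and mitochondrial genes included, Hspa8 had the larger ratio in FBN1+ cells.

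Within quadriceps, the inducible genes were lower in FBN1+ than in LUM+ cells, with 1060 against 2774 CPM summed. Past 2-fold higher in LUM+ were 3 members, Hspa1a, Hspa1b and Dnajb1, against 5.76% of 3404 genes. Their FBN1+ to LUM+ ratios were 0.370 (interval 0.358 to 0.382), 0.381 (0.368 to 0.394) and 0.418 (0.372 to 0.468). Hspb1 had a ratio of 0.536 and Hsph1 of 0.586. Hspb1 and Hsph1 also passed 2-fold with Scrublet doublet calls removed (log2 −1.02 and −1.07) and with both libraries clustered together (−1.05 and −1.08). Hspb1 did so without an upper UMI limit as well (−1.05). The other 5 members leaned to FBN1+ cells by less than 2-fold, with ratios of 1.05 for Hspa8, 1.08 for Hspe1, 1.12 for Dnaja1, and 1.22 for both Hsp90aa1, the inducible HSP90 gene, and Hsp90ab1. With all variable genes used in clustering, members, stress and mitochondrial genes included, Hspe1 no longer did, at a log2 ratio of −0.04.

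Within diaphragm the same genes leaned to LUM+ cells, but by less than 2-fold, with 7205 CPM in FBN1+ and 11266 in LUM+ cells summed over the inducible genes. No member was past 2-fold (0 of 10), against 2.79% of 3157 genes higher in LUM+. Hspa1a had a ratio of 0.622 (interval 0.612 to 0.631), Hspa1b of 0.645, Hsp90aa1 of 0.674 and Dnajb1 of 0.691. With all variable genes used in clustering, members, stress and mitochondrial genes included, Hsp90aa1, Hsph1 and Hspa8 leaned to FBN1+ cells instead, at log2 ratios of 0.08, 0.23 and 0.28. The log2 ratio of Hsp90ab1 went from −0.09 to 0.08 there. It was 0.009 with a mitochondrial limit of 10%, 0.002 with none and 0.004 with at least 2000 UMIs. Hspb1 had a ratio of 1.02 (0.998 to 1.04), an interval that held 1, and a log2 ratio of 0.29 where the mitochondrial limit was applied before clustering. Over both muscles 0 members were past 2-fold in the same direction, against 2.21% of 2981 genes that were higher in LUM+ in both. The subtypes of a muscle share its library, and with it the free RNA and the handling.

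Subclusters showed where the low values lay. Among those with at least 30 cells, the quadriceps FBN1+ subcluster led by Dmkn, Sbsn and Krtdap (276 cells) had the lowest inducible level, 610 CPM, and the other FBN1+ one (445 cells) had 1288. The 4 LUM+ subclusters of quadriceps had 1495 to 3089. In diaphragm the lowest was the FBN1+ subcluster led by Ptx3 and Cxcl13 (187 cells) at 4695, and the highest the LUM+ one led by Nppc and Hsd11b1 (366 cells) at 11931. Hspa1a in these last subclusters was 2011 and 5703. The lowest diaphragm subcluster was therefore above the highest quadriceps subcluster, which was not counted over all genes.

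**Figure D3:**
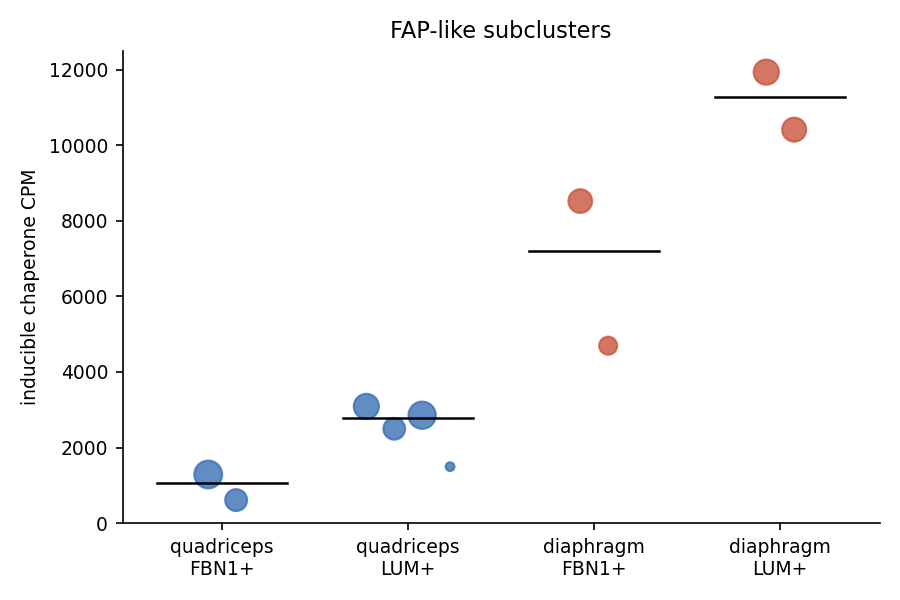
Summed Hspa1a, Hspa1b, Hsph1 and Dnajb1 level, in CPM, of each FAP-like subcluster with at least 30 cells (points, area by number of cells), by muscle and subtype, with the level of the whole subtype as a line. Quadriceps points span 610 to 3089 and diaphragm points 4695 to 11931.

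Other classes with at least 30 kept cells and a name were found in quadriceps only, and they were lymphocytes. In B, T and natural killer (NK) cell-like cells nearly all members stood above the FAP-like cells of the same library, except Hspb1, which stood below in all 3. B cell-like cells (31 cells) had 9 members past 2-fold higher, against 24.9% of 4231 genes, and 1 lower, against 37.7%. NK cell-like cells (71 cells) had 8 higher, against 22.9% of 4100 genes, and 1 lower, against 30.8%. T cell-like cells (30 cells) had 8 higher, against 19.4% of 3849 genes, and 1 lower, against 40.2%. Between these cells and fibroblasts a large share of all genes differ, so the counts are read against those shares. The members' median log2 ratios were 2.51, 1.70 and 1.92, and those over all genes were −0.31, 0.03 and −0.50. In diaphragm, T cell-like barcodes over the mitochondrial limit (34) had 1 of 10 members past 2-fold above FAP-like ones over it. All genes had 24.1% of 3849 higher, and 1 member was lower, against 32.1%. In quadriceps, T cell-like barcodes over the limit had 9 members higher, against 16.7% of 3704 genes.

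Hspa1a stood at 9806 CPM in B cell-like, 4394 in NK cell-like and 3913 in T cell-like cells of quadriceps, against 1034 in FAP-like cells, which are ratios of 9.48 (interval 8.87 to 10.1), 4.25 (4.01 to 4.50) and 3.78 (3.49 to 4.09). B cell-like cells were thus above the other lymphocytes in Hspa1a. Dnajb1 was alike in the 3 classes, at 659, 719 and 738, with intervals of the ratio that overlapped. Hsp90ab1 differed least among the raised members, with ratios of 2.18, 1.88 and 1.78, and it was the member that missed 2-fold in NK and T cell-like cells.

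Hspb1 was at 42.5 CPM in B cell-like cells, from 4 UMIs, at 116 in NK cell-like and at 86.8 in T cell-like cells, against 344 in FAP-like cells. The ratios were 0.124 (interval 0.0337 to 0.317), 0.338 (0.233 to 0.476) and 0.253 (0.138 to 0.424). At 1000 UMIs it was found in 3.23%, 4.23% and 6.67% of these cells. Dcn, which lymphocytes lack, was found in 9.68%, 16.9% and 6.67% of the same cells, where it stood at 160 CPM, 152 and 118, against 20854 in FAP-like cells. The part of free RNA in the Hspb1 counts of lymphocytes was not tested. Hspa1a was found in 87.1%, 69.0% and 66.7% of them. Median depths were 2950, 3609 and 5297 UMIs.

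**Figure D4:**
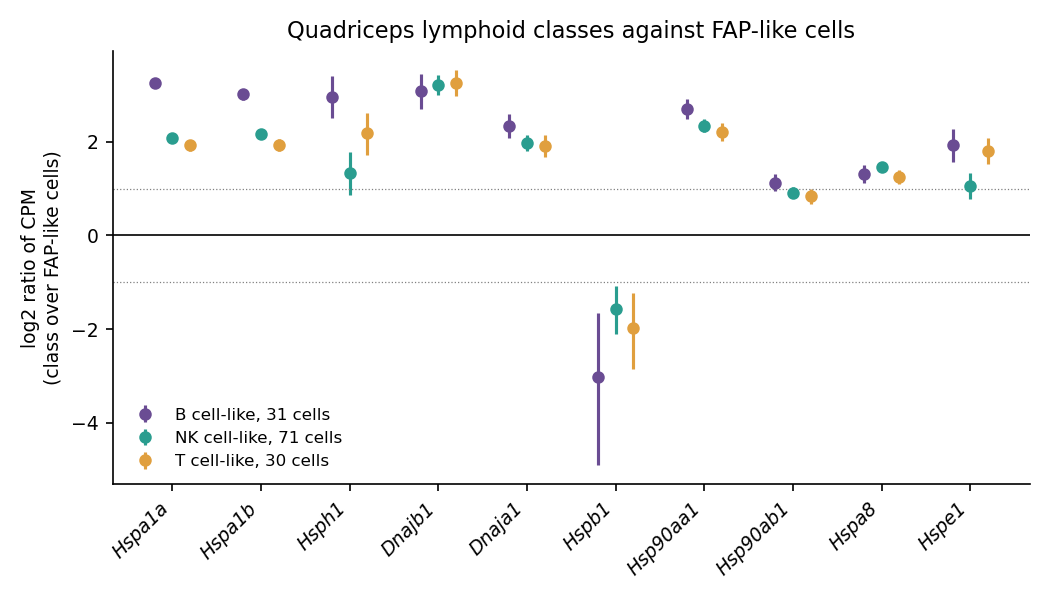
Log2 ratio of CPM in quadriceps B cell-like (31 cells), NK cell-like (71 cells) and T cell-like cells (30 cells) to FAP-like cells for each member, with 95% counting intervals and dotted lines at 2-fold. All members lie above 0 in the 3 classes except Hspb1, whose ratios are 0.124, 0.338 and 0.253 on the linear scale.

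Apart from NK cell-like cells, most cells of the other named classes had over 5% mitochondrial UMIs, so their levels were taken from those barcodes and are given apart. Satellite cell-like cells, the stem cells of muscle fibres, had 16503 inducible CPM (180 cells), close to the 18030.2 of B cell-like cells from the same side of the limit (184 cells). Hspa1a stood at 9974 in satellite cell-like cells, and in the 22 that passed the limit it was 15999.6. Hspb1 stood at 2907 there, against 65.6 in the B cell-like cells. Over the limit, satellite cell-like and B cell-like cells were thus close in Hspa1a (9974 and 10050), less so in Hspa1b (5170 and 6827), and far apart in Hspb1. Among cells that passed the limit they were not close in Hspa1a, which stood at 9806 in the 31 B cell-like cells. At 1000 UMIs no inducible UMI was found in 16.7% of satellite cell-like cells, and the highest cell had 79.

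Smooth muscle or pericyte-like cells, the contractile cells of vessel walls, had the highest Hspb1 levels of the named classes past the mitochondrial limit in diaphragm, and the second highest in quadriceps. In quadriceps (1226 cells) Hspb1 stood at 1591 and Hspa1a at 1141 CPM, and in diaphragm (45 cells) they stood at 4771 and 3495. Hspb1 was found in 67.5% and 95.6% of these cells at 1000 UMIs. Relative to FAP-like barcodes over the limit in the same library, Hspb1 had ratios of 11.5 (interval 10.6 to 12.4) and 4.05 (3.84 to 4.27).

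The low end held endothelial-like and tenocyte-like cells of quadriceps. Endothelial-like cells (47 cells, led by lymphatic genes such as Mmrn1 and Lyve1) had 311 inducible CPM and tenocyte-like cells of tendon (84 cells) 533, both below the 711 of FAP-like barcodes over the limit. Schwann cell-like cells, the glia of nerve (129 cells), had 2921. Hspa1a stood at 137, 222 and 1727 in these 3 classes, and Hspb1 ran in another order, at 470, 89.4 and 41.6. At 1000 UMIs, 25.5% of endothelial-like cells (interval 13.9% to 40.3%) had an inducible UMI, the lowest share of the named classes. A cluster made almost wholly of mitochondrial UMIs (102 barcodes) had 181 inducible CPM, and 11.8% of its barcodes had an inducible UMI.

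**Figure D5:**
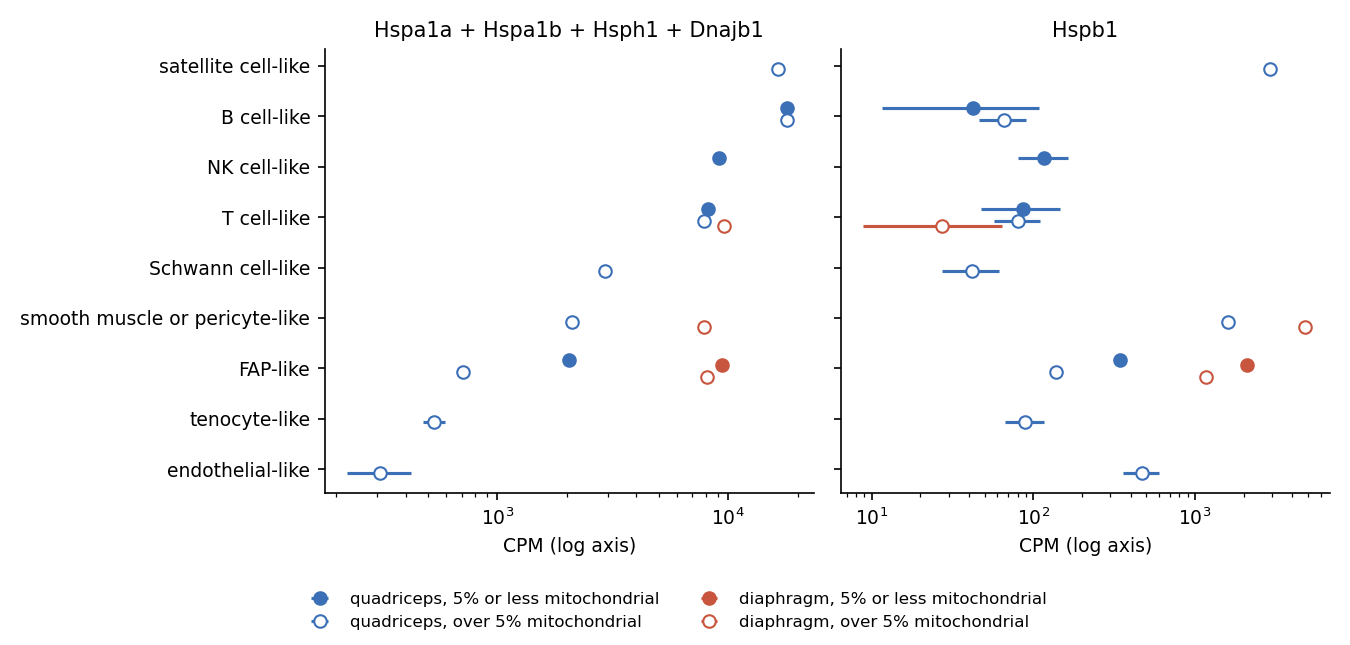
Level of the summed inducible genes (left) and of Hspb1 (right), in CPM on log axes, in each named class with at least 30 cells, for barcodes with at most 5% mitochondrial UMIs (filled) and over it (open) in quadriceps (blue) and diaphragm (red), with 95% counting intervals. B cell-like cells, at 17889 (filled) and 18030.2 (open), and satellite cell-like cells, at 16503 (open), are highest on the left, while on the right the lymphocytes lie at 27.3 to 116 and diaphragm smooth muscle or pericyte-like cells at 4771.

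The muscles could be compared in 2 further classes, on barcodes over the mitochondrial limit. In FAP-like barcodes over it (605 and 332) the contrast was also found, with 8 of 10 members past 2-fold higher in diaphragm, against 3.15% of 3299 genes. Hspa1a stood at 337 and 3707 there and Hspb1 at 139 and 1177. In smooth muscle or pericyte-like cells 7 of 10 members were past 2-fold higher in diaphragm, against 4.78% of 2826 genes, with Dnajb1 at 67.2 and 441, Hsph1 at 68.9 and 446 and Hspb1 at 1591 and 4771. Hspa8, Hsp90ab1 and Hspe1 did not pass 2-fold, with ratios of 1.96, 1.62 and 1.51.

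T cell-like cells (98 of quadriceps, 34 of diaphragm) did not show that contrast. There 0 of 10 members were past 2-fold higher in diaphragm, against 26.1% of 2831 genes, and the median log2 ratio was 0.27 over the members and 0.45 over all genes. Hspa1a stood at 3591 and 4268, a ratio of 1.19 (interval 1.09 to 1.29), and Hspb1 at 80.3 and 27.3, the latter from 5 UMIs. Of the 7 T cell markers in the files, 3 were at 0 in the diaphragm cells, so the classes may not hold the same cells. Whether the contrast differs between classes was not tested, since each is 1 library against 1.

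Within a muscle, FAP-like barcodes over the mitochondrial limit had less of every member than those below it, on totals without mitochondrial UMIs. In quadriceps 4 members were past 2-fold lower, against 0.661% of 3480 genes. Hspa1a went from 1072 below the limit to 363 over it, a ratio of 0.338 (interval 0.321 to 0.356), with 0.368 for Hspa1b, 0.419 for Hspb1 and 0.431 for Dnajb1. In diaphragm 1 member, Dnajb1, was past 2-fold lower, at 602 and 299, against 0.854% of 3279 genes, while Hspa1a had a ratio of 0.895 (0.877 to 0.914). Hsp90ab1 had ratios of 0.847 and 0.799, and Hspe1 of 0.935 and 0.840.

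The inducible genes did not follow the mitochondrial share evenly in FAP-like cells. All levels in this paragraph are on totals without mitochondrial UMIs, unlike the CPM of classes given above. In quadriceps they stood at 1344 CPM in cells with up to 2% mitochondrial UMIs, at 2228 and 2346 between 2% and 4%, at 1731 from 4% to 5%, and at 832 from 5% to 7%, and at 513 above 10%. In diaphragm they stood between 9352 and 9985 from 2% to 5%, at 8285 from 5% to 7%, and at 12769 above 10% (71 cells). Equal bins by depth, of kept cells only, stood at 1926, 2170 and 2156 in quadriceps from shallow to deep and at 10584, 10395 and 8794 in diaphragm. Set against mitochondrial bins up to 5%, the depth bins differed less in quadriceps and more in diaphragm. Every bin of diaphragm cells was thus above every bin of quadriceps cells, which was not counted over all genes.

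Hspa1a and Hspa1b were close to even in FAP-like cells, with Hspa1a at 54.6% of their summed UMIs in quadriceps (interval 54.1% to 55.1%) and 50.2% in diaphragm (49.9% to 50.4%). Satellite cell-like cells leaned to Hspa1a, at 65.9% (65.1% to 66.6%) of 180 cells. B cell-like cells had 58.5% (56.1% to 61.0%), and smooth muscle or pericyte-like cells had 58.3% in quadriceps and 50.1% in diaphragm. How reads that match both genes were counted is not given in the sources used here, so the split is uncertain.

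Across single FAP-like cells at 1000 UMIs, Hspa1a and Hspa1b had a Pearson r of 0.61 in quadriceps (1846 cells) and of 0.52 in diaphragm (1245 cells). Hspb1 had an r with the summed inducible genes of 0.36 and 0.27, Hsp90aa1 of 0.13 and 0.34, and Hspe1 of 0.02 and 0.12. These cells share a library and a fixed depth, counts are sparse, and values this low for genes other than the pair are given only as a description. FAP-like cells with a Fos UMI more often had an inducible UMI, 72.2% of 212 against 44.2% of 1634 in quadriceps and 95.5% of 864 against 88.2% of 381 in diaphragm. Fos is an immediate early gene, one that is switched on within minutes of a stimulus.

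The wider chaperone network was far less different between the muscles than the members were. Of 16 HSF1-linked co-chaperones measured at 50 CPM or more, 2 were past 2-fold higher in diaphragm FAP-like cells, with a list median log2 ratio of −0.05. They were Bag3, which links HSP70 to autophagy, at 59.5 in quadriceps and 232 in diaphragm, and Dnajb4, an HSP40, at 56.3 and 157. Dnajc7, an HSP40 with TPR repeats, was lowest at 53.9 and 38.3. Of 12 genes of the CCT chaperonin and prefoldin, which fold actin and tubulin, 0 were past 2-fold and the median was −0.05. Of 3 mitochondrial chaperones 0 were, with Hspd1 at 119 and 224, and of 2 small heat shock proteins besides Hspb1 (Cryab and Hspb8) 0 were, with a median of 0.28.

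The list of chaperones and stress genes of the endoplasmic reticulum had 1 of 17 past 2-fold higher, with a median of 0.04. It was Ddit3, at 29.7 and 69.7, a transcription factor of the stress response and not a chaperone. None of the chaperones of the endoplasmic reticulum passed 2-fold. Canx, which holds glycoproteins in the endoplasmic reticulum, stood at 261 and 206. Among oxidant stress genes, Hmox1, the haem-degrading enzyme, stood at 24.0 and 147, past 2-fold higher in diaphragm, and Gclm of glutathione synthesis stood at 61.7 and 49.9. The 4 heat shock factors were all under 50 CPM in both muscles, with Hsf1 at 16.9 and 18.9. Next to these, 15 of 18 immediate early genes were past 2-fold higher in diaphragm, with a median of 2.73. Fos stood at 207 and 2864, Jun at 628 and 3354, Egr1 at 405 and 2627, and Atf3 at 22.1 and 601. Both the members and the immediate early genes were thus higher in the diaphragm library, and the part of 1 in the other was not tested.

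The genes outside the lists whose level was most like the summed inducible genes were looked for over 16 groups of class, muscle and mitochondrial side with at least 30 cells, among 6955 genes. They were Kdm6b (Pearson r of 0.89), Swt1 (0.87), Pnrc1 (0.85), Mcm7 (0.82), Ppp1r15a (0.82), Ppp1r10 (0.81), Gm11808 (0.81) and Hnrnpa0 (0.80) on log2 levels. Members outside the sum had values of 0.95 for Hsp90aa1, 0.91 for Hspe1, 0.90 for Dnaja1, 0.84 for Hspa8 and 0.78 for Hsp90ab1, but 0.01 for Hspb1. The groups share 2 libraries, so they are not independent. Over single FAP-like cells, among 2524 genes, the most alike were Smoc2, Cst3, Dcn, Gsn, Hsd11b1, Sparcl1, Lum and Cygb, with r between 0.11 and 0.24, values too low in sparse counts to count as a finding.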

How the data were processed

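Cells of quadriceps and diaphragm were encapsulated with a droplet 3′ kit. The deposited values are raw UMI counts per gene and barcode, which the authors made by alignment to GRCm38; the submitters' processing notes name Cell Ranger 3.0.0, Seurat and mm10. All 7658 barcodes the study states were in the files. Barcodes with at least 1000 UMIs and at most 3 scaled median absolute deviations above the log10 median were clustered per library (10 components, 2000 variable genes, 20 neighbours, Leiden resolution 0.5), leaving out 120 genes: members, listed stress genes and 13 mitochondrial genes. The study's mitochondrial limit was read as 5%, which left 3833 cells, fewer than it kept. Clusters were named "-like" from marker lists by a rule set after the clusters were seen: a marker counted with a UMI in 25% of cells and at 4-fold the lowest cluster, and a name needed 3. Doublets were not removed, and Scrublet calls (98, or 1.90%, and 4, or 0.160%) were dropped as an alternative.

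Counts were summed per class and scaled to CPM, with log2 ratios on a pseudocount of 1 and a floor of 50 in the higher group. Intervals of levels are exact Poisson, those of shares exact binomial (Clopper-Pearson), those of ratios exact conditional, all at 95%. Beside the members, the text names listed chaperones with the 3 largest differences each way, Fos, Jun, Egr1, Atf3 and the 8 genes most alike; Hspd1, Ddit3 and Hsf1 were chosen after their values were seen. The members and lists were chosen with earlier results of these data known. Python 3.11.15, numpy 2.4.6, scipy 1.17.1, scikit-learn 1.9.0, leidenalg 0.10.2 and scanpy 1.11.5 were used, and the scripts were checked on simulated data.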

Additional observations from a re-analysis of the deposited data

Results flagged for a closer look

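Several members leaned opposite ways in groups measured under the same contrast, and none of these differences was tested, since every group is 1 library. Between barcodes over the mitochondrial limit, the log2 ratio of diaphragm to quadriceps was 2.52 in FAP-like and −0.12 in T cell-like cells for Hsph1, 3.08 and −0.34 for Dnajb1, 3.08 and −1.52 for Hspb1, and 0.54 and −0.38 for Hspe1. The diaphragm T cell-like group had 34 barcodes, 5 Hspb1 UMIs and 3 of 7 T cell markers at 0. Between the FAP subtypes, the log2 ratio of FBN1+ to LUM+ cells was 0.17 in quadriceps and −0.38 in diaphragm for Dnaja1, 0.29 and −0.57 for Hsp90aa1, and 0.11 and −0.27 for Hspe1. With all variable genes used in clustering, members, stress and mitochondrial genes included, Hsp90aa1 and Hspe1 no longer leaned opposite ways, at 0.13 and 0.08 and at −0.04 and −0.34, while Dnaja1 did, at 0.03 and −0.11.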

How the results depend on the processing

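With 1 library per tissue, depth limits counting error only. Under all 15 alternatives 8 members were past 2-fold higher in diaphragm, 1 of these alternatives (the Thbs4-led diaphragm cluster counted as FAP-like) being chosen after seeing the data. Over all genes, the share higher in diaphragm ran from 2.49% (floor of 10 CPM) to 4.29% (all variable genes) in the alternatives where it was counted. Log2 ratios kept their sign in every one, from 0.54 to 0.78 for Hspe1 and from 2.52 to 3.11 for Dnajb1. Scaling by the median ratio took a shift of −0.0952 (log2) out of all ratios, which raised each, with 65.6% of calls higher there against 56.1%. The share of FAP-like cells with an inducible UMI was 47.5% in quadriceps and 93.3% in diaphragm. In quadriceps it became 44.7% with a mitochondrial limit of 10%, 41.0% with none, 61.4% at 2000 UMIs and 88.3% without thinning. In diaphragm it became 91.7% at a resolution of 1.0, 90.4% with all variable genes, 96.4% at 2000 UMIs and 99.6% without thinning. The cause of the clustering changes was not tested. Members past 2-fold between other classes and FAP-like cells numbered 28, and 46 with a limit of 10%, 51 with none, 18 with at least 2000 UMIs and 10 with both libraries clustered together, where 8, 10, 2 and 1 classes were compared in place of 3. In the main setting 19.4% to 24.9% of all genes were past 2-fold higher in these classes and 30.8% to 40.2% lower. Shares over all genes under the other settings are not given here, so these counts cannot be read alone. Without an upper UMI limit 1 member, Hspa1b, was past 2-fold lower in FBN1+ than in LUM+ cells in both muscles (log2 −1.66 and −1.13), against 0 otherwise. Members past 2-fold between sides of the mitochondrial limit numbered 4 to 5. In the main setting 0.661% of 3480 genes in quadriceps and 0.854% of 3279 in diaphragm were past 2-fold lower over it. With a floor of 10 CPM, 214 of 8584 genes were higher in diaphragm and 240 in quadriceps, against 115 and 90 of 3283. No paired analysis was possible because each tissue has 1 library and the labels give no replicate numbers.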
